A study of Homo sapiens with 6 samples.

Results

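The keratin genes KRT5, KRT6A, KRT81 and KRT86 were described in the human ovarian carcinoma line SK-OV-3, grown with and without fulvic acid (FA), a water-soluble fraction of humic substances. The 4 genes were picked by symbol from a deposited table of 459 genes that the authors list as changed by FA, so the comparison of FA with control chose them and their lower level with FA is a description here, with no test. The table ends at an absolute log2 fold change of 1.00 and an adjusted p of 0.00977. RNA from 3 control libraries (wild-type SK-OV-3 cells, no treatment) and 3 FA libraries (the same line given FA at 100 µg/ml) was sequenced, with culture for 48 h in both groups. The cells are of 1 line, and the labels do not state whether replicate libraries had cultures of their own, so their spread may be technical. Of 34 markers of ovarian, basal, leukocyte, fibroblast, endothelial and hair shaft cells that were looked up, 1 (COL1A1) was among the 459 genes, so the cell type could not be checked from the table.

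Keratins are the intermediate filament proteins of epithelia. A type I and a type II chain pair with each other, and the pairs assemble into filaments that give epithelial cells their mechanical strength and that end at desmosomes and hemidesmosomes. The 4 genes here are all type II. KRT5 is the chain of basal cells of stratified epithelia, where its usual partner is KRT14. KRT6A is known from hair follicles, nails and wounded or hyperproliferative epidermis. KRT81 and KRT86 are hair keratins of the hair cortex. Simple epithelia, and most carcinomas that arise from them, are built mainly on KRT7, KRT8, KRT18 and KRT19.

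All 4 genes lie in the type II keratin cluster of chromosome 12 (GRCh38, GENCODE release 29). Between KRT80 (start 52168996) and KRT18 (end 52952901) the annotation holds 27 protein-coding genes, all 27 of them keratins, and 4 of the 27 were in the table. Only genes called changed were available, so no share over all expressed genes can be set beside the 4 of 27. The 4 form 2 pairs of neighbours. KRT6A (ENSG00000205420, chr12:52487174-52493257, minus strand) and KRT5 (ENSG00000186081, chr12:52514575-52520687, minus strand) are the adjacent 12th and 13th coding genes of the cluster, 21317 bases apart. KRT81 (ENSG00000205426, chr12:52285913-52291534, minus strand) lies within the annotated span of KRT86 (ENSG00000170442, chr12:52249300-52309163, plus strand). It sits in an intron of the 2 longer-spanning KRT86 transcripts, while the shortest-spanning full-length one starts at 52301865, 10330 bases from the 5′ end of KRT81 and facing away from it. No exonic base of KRT5, KRT6A or KRT81 is exonic in another gene. Of the exonic bases of KRT86, 8.60% are shared with AC021066.1, AC021066.3 or AC121757.1, of which AC021066.1 and AC121757.1 are antisense RNAs, and no source used here says if counting kept strand.

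The hair keratin pair is nearly a copy in sequence, which bears on how far their reads can be told apart. In a global alignment of the coding sequences, 94.8% of 1453 aligned bases were the same in KRT81 and KRT86, including an unbroken run of 605 bases (coding bases 61 to 665 of both). The window of 60 ungapped bases with the most differences, 14 in capitals, lies at coding bases 1249 to 1308 across exons 8 and 9. It is an example of a stretch where reads of the pair can be separated, and the sequences also differ elsewhere.
KRT81 (from chr12:52286465-52286821, minus strand, intron left out): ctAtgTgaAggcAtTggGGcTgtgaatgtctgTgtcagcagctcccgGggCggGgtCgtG
KRT86 (from chr12:52308234-52308432, plus strand, intron left out): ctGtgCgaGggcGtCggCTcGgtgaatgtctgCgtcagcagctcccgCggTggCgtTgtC

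**Figure D1:**
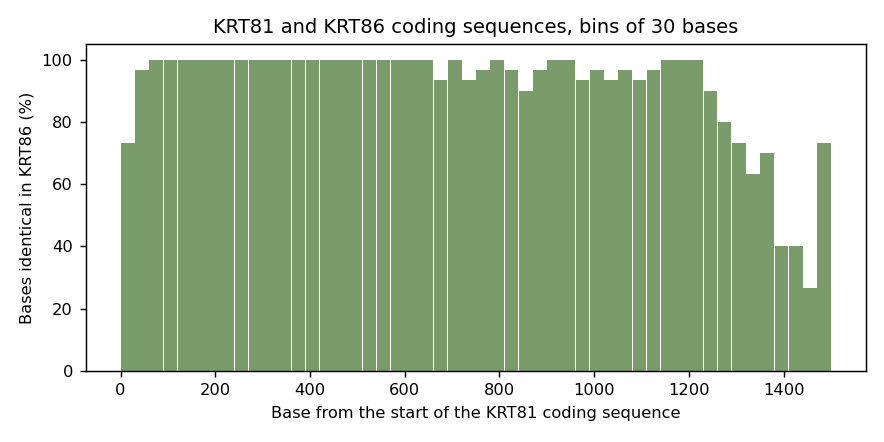
Share of bases of the KRT81 coding sequence that are identical in the aligned KRT86 coding sequence (vertical axis, percent) in consecutive bins of 30 bases (horizontal axis, base from the start of the coding sequence). Every bin from base 61 to base 660 is at 100%, and the lowest bin, from base 1441 to base 1470, is at 26.7%. A KRT81 base that faces a gap in KRT86 counts as not identical here, whereas the 94.8% identity is over aligned bases only.

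Windows of transcript sequence gave the same picture in terms of reads. Of all 100-base windows of the KRT81 transcript, 29.4% were also present in a KRT86 transcript, and 27.0% of those of KRT86 were present in KRT81 (for KRT86, the transcript that starts at 52301865). For KRT6A the copies lie outside the 4 genes: its coding sequence is 97.9% identical to KRT6C and 97.5% to KRT6B, and 18.2% of its 100-base windows occur in another gene. KRT5 stood apart from all of these, with 1.44% of its 100-base windows in another gene, and its coding sequence was 85.7% identical to that of KRT6A. With 150-base windows the shares found elsewhere were 25.6% for KRT81, 23.5% for KRT86, 9.25% for KRT6A and 0% for KRT5. Neither the read length nor how reads that match 2 genes were assigned is given in the sources used here, so the split of counts between KRT81 and KRT86, and between KRT6A and its copies, is uncertain.

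Levels are given as FPKM (fragment counts scaled by transcript length and library depth), which is meant for comparison between genes. For KRT6A, KRT81 and KRT86 that comparison is limited by the unknown handling of reads that match 2 genes. Depth, recovered from counts and FPKM, lay between 39900000 and 50900000 fragments, and the control and FA ranges overlapped. KRT5 was by far the most abundant of the 4. It stood at 23.8, 30.1 and 33.6 FPKM in control 1, 2 and 3 and at 6.30, 5.91 and 5.00 FPKM in FA 1, 2 and 3, with counts of 2610, 3710 and 4014 against 636, 666 and 643. The groups did not overlap, and the lowest control library was 3.77 times the highest FA library. The mean was 29.1 ± 5.0 FPKM in control and 5.74 ± 0.67 FPKM with FA (SD, n = 3 each), 5.08-fold lower (log2 fold change -2.34, SE 0.17, from an edgeR fit over all 459 genes). In bulk RNA, fewer cells expressing a keratin and less of its RNA per cell cannot be told apart.

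KRT6A was present at a much lower level. Its counts were 182, 212 and 252 in control 1, 2 and 3 and 45, 53 and 44 in FA 1, 2 and 3, or 1.81, 1.88 and 2.30 FPKM against 0.483, 0.508 and 0.367 FPKM. Again no FA library reached a control library, and the gap between the closest libraries was 3.55-fold. The group means were 2.00 ± 0.27 and 0.453 ± 0.075 FPKM (SD, n = 3 each), and the fitted level was 4.37-fold lower with FA (log2 fold change -2.13, SE 0.22).

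KRT81 had the lowest level of the 4 with FA. The control libraries held 147, 144 and 168 counts (1.74, 1.52 and 1.84 FPKM), and the FA libraries held 6, 12 and 4 counts (0.0725, 0.139 and 0.0406 FPKM). The exact 95% Poisson intervals of the FA counts, 2.20 to 13.1, 6.20 to 21.0 and 1.09 to 10.2, cover counting error only. FA 2 was the highest and FA 3 the lowest of the FA libraries, and the closest control and FA libraries were 10.95-fold apart. The mean went from 1.70 ± 0.16 FPKM in control to 0.0840 ± 0.050 FPKM with FA (SD, n = 3 each). The fitted level was 19.8-fold lower (log2 fold change -4.31, SE 0.35), and it rests on 4 to 12 counts per FA library.

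KRT86, its near-copy, differed least. Its counts were 97, 137 and 204 in control 1, 2 and 3 and 60, 49 and 74 in FA 1, 2 and 3. In FPKM the control libraries stood at 1.01, 1.34 and 1.93 and the FA libraries at 0.715, 0.602 and 0.693. The groups did not overlap, but control 1 was only 1.41 times FA 1. The exact 95% Poisson intervals of these 2 counts were 78.7 to 118 in control 1 and 45.8 to 77.2 in FA 1. Depth was 43500000 fragments in control 1 and 39900000 in FA 1, and scaled by depth the intervals overlap. The means were 1.43 ± 0.47 and 0.670 ± 0.060 FPKM (SD, n = 3 each), and the fitted level was 2.30-fold lower (log2 fold change -1.20, SE 0.27). Without control 3 the log2 fold change was -0.90, and without control 1 it was -1.39. With library scaling computed from the 459 listed genes alone, which by construction centres the typical listed gene and adds 1.24 to the median log2 fold change, KRT86 changed sign (log2 fold change 0.046 with TMM). KRT5, KRT6A and KRT81 stayed lower with TMM, at -1.10, -0.88 and -3.07.

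**Figure D2:**
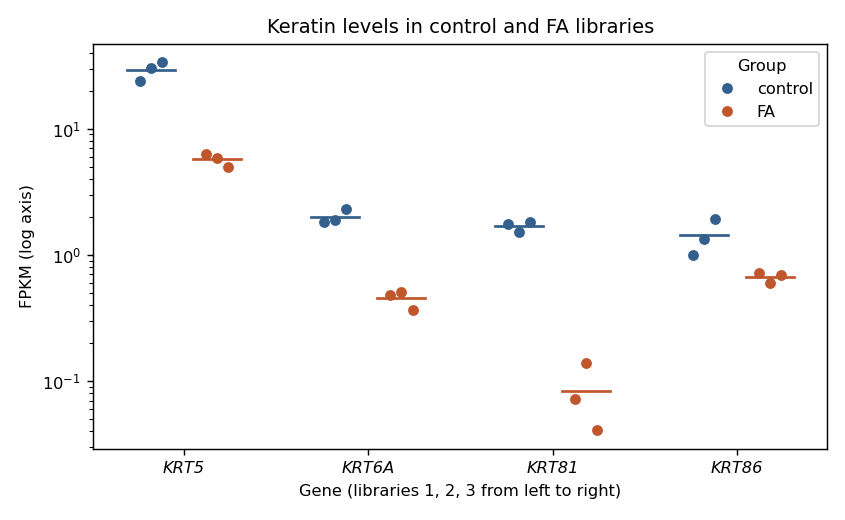
FPKM of each keratin on a log axis, with 1 point per library (libraries 1, 2 and 3 from left to right in each group) and a line at the group mean. The FA points lie below the control points in all 4 genes, with KRT81 farthest apart and KRT86 closest (control 1 at 1.01 FPKM, FA 1 at 0.715 FPKM). KRT86 changes sign when libraries are scaled on the listed genes alone.

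The authors' deposited table gives log2 fold changes of -2.29 for KRT5, -2.07 for KRT6A, -4.27 for KRT81 and -1.15 for KRT86. The FDR in the authors' deposited table was 5.0e-37, 3.0e-14, 2.0e-21 and 0.0050 in that order. By the log2 fold change of the authors' deposited table KRT81 ranked 3rd of 342 lower genes, KRT5 41st, KRT6A 59th and KRT86 263rd. KRT86 is thus the member nearest to the limits of the table. All 4 were lower, in a table where 74.5% of genes were lower by the authors' sign, by the edgeR refit at an adjusted p of 0.05 (100% of genes passed it in either direction) and by having every FA library below every control library. The 4 of 4 adds nothing to that background.

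**Figure D3:**
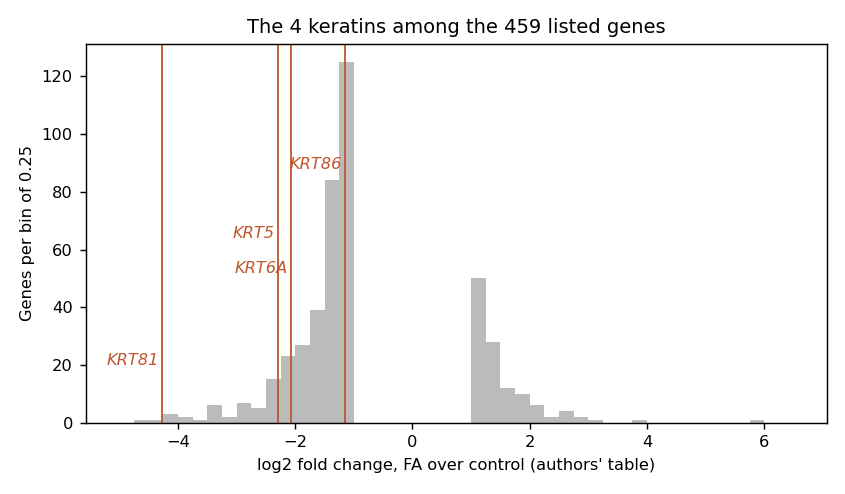
Number of listed genes (vertical axis) by the log2 fold change of the authors' deposited table (horizontal axis, bins of 0.25), with a line at each keratin. KRT81 lies near the lower end at -4.27 and KRT86 at -1.15, beside the empty stretch around 0 that the authors' limits leave. KRT86 changes sign when libraries are scaled on the listed genes alone.

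The order of the 4 genes by mean FPKM differed between the groups. In control, KRT5 was first in all 3 libraries and made up 83.9% to 86.4% of the summed FPKM of the 4. KRT6A, KRT81 and KRT86 followed with means of 2.00, 1.70 and 1.43 FPKM. These neighbours were not separated beyond their spread, since KRT6A ran from 1.81 to 2.30, KRT81 from 1.52 to 1.84 and KRT86 from 1.01 to 1.93 FPKM over the control libraries. KRT6A was above KRT81 within each control library. With FA, KRT5 still made up 82.0% to 83.2% of the sum. KRT86 came second at 0.602 to 0.715 FPKM, above KRT6A at 0.367 to 0.508 FPKM. KRT81 was last at 0.0406 to 0.139 FPKM, and these FPKM ranges did not overlap. In counts KRT86 was above KRT6A in FA 1 and FA 3. In FA 2 KRT6A had 53 counts (exact 95% Poisson interval 39.7 to 69.3) and KRT86 had 49 (36.3 to 64.8). The order of KRT86 and KRT6A in FA 2 thus depends on the length scaling and is within counting error. The summed FPKM of the 4 was 28.3, 34.8 and 39.6 in control 1, 2 and 3 and 7.57, 7.15 and 6.10 in FA 1, 2 and 3, so the sum mostly follows KRT5.

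The share of each gene within its pair of neighbours overlapped between control and FA for the basal and wound-type keratins and did not overlap for the hair keratins. KRT6A made up 6.52%, 5.41% and 5.91% of the KRT6A plus KRT5 counts in control 1, 2 and 3 and 6.61%, 7.37% and 6.405% in FA 1, 2 and 3. KRT81 made up 60.2%, 51.2% and 45.2% of the KRT81 plus KRT86 counts in control 1, 2 and 3, with exact binomial 95% intervals that together ran from 40.0% to 66.4%. In FA 1, 2 and 3 the share was 9.09%, 19.7% and 5.13%, with intervals that together ran from 1.41% to 31.8%. The mean share of KRT81 was thus 52.2% ± 7.6 in control and 11.3% ± 7.5 with FA (SD, n = 3 each), and 7.11% with FA when FA 2 is left out. On the log2 scale the KRT81 to KRT86 count ratio lay between -0.28 and 0.60 in control and between -4.21 and -2.03 with FA. Since both genes were chosen from this contrast, the difference between them is given without a test.

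**Figure D4:**
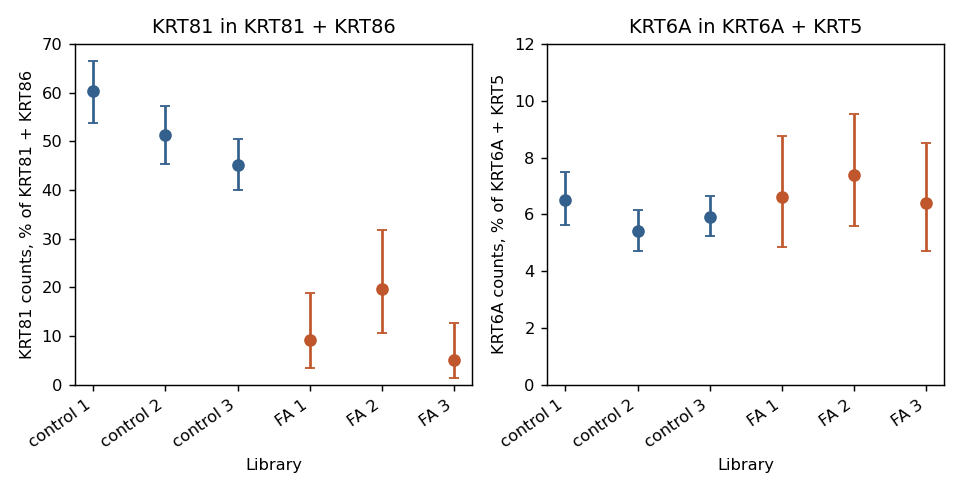
Share of KRT81 in the counts of KRT81 plus KRT86 (left) and of KRT6A in the counts of KRT6A plus KRT5 (right), in percent, for each library, with exact binomial 95% intervals as bars. The left share is 45.2% to 60.2% in control and 5.13% to 19.7% with FA, while the right one stays between 5.41% and 7.37% in all 6 libraries.

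The deposited counts and FPKM values of a gene together imply the transcript length that the authors' values used. For KRT5 this was 2523 to 2529 bases in all 6 libraries, beside 2531 bases of the annotated coding transcript. For KRT81 it was 1928 to 1941 bases in the control libraries, beside 1929 annotated bases, and 1936 to 2074 bases in the FA libraries, where few counts set it. KRT86 was less steady: 2218, 2101 and 2225 bases in control 1, 2 and 3 and 2104, 1822 and 2098 bases in FA 1, 2 and 3, beside 2091 annotated bases. Its FA to control ratio of 0.921 was among the lower ones, as 14 of 363 listed genes that held 30 counts or more in each library had a ratio as low or lower, KRT86 included (median 1.00). The KRT86 difference was accordingly smaller in FPKM (2.13-fold between the means) than in the fitted counts (2.30-fold). For KRT6A the ratio was 1.01 and for KRT5 1.00.

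The spread between libraries differed among the 4 genes. Among the depth-scaled control counts the coefficient of variation was 17.0% for KRT5, where counting error alone gives 1.70%, and 34.3% for KRT86, where it gives 8.28%. For KRT6A it was 13.2% with a counting error of 6.81%, and for KRT81 it was 9.33% with a counting error of 8.08%. With FA, KRT81 varied most, by 57.8% with a counting error of 36.9%, followed by KRT86 at 16.4%, KRT6A at 16.2% and KRT5 at 11.7%. Control 1 was the lowest control library for KRT5, KRT6A and KRT86, with deviations from the control mean of -0.28, -0.13 and -0.43 on the log2 scale, and KRT81 deviated there by 0.044. Across 371 listed genes, which share these libraries, the deviation of control 1 had a Spearman correlation with transcript GC content of -0.76, against 0.37 and 0.67 in control 2 and 3. Each gene was centred on its group mean, so the deviations within a group are tied to each other. In FA 1, 2 and 3 the correlations were 0.055, 0.18 and -0.25. GC content was 56.8% for KRT5, 55.8% for KRT6A, 62.3% for KRT81 and 61.4% for KRT86, above the median of 51.9% over these genes. The part of GC content in the keratin values was not tested.

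Related genes were looked up in fixed lists. Of 26 type II keratins, 4 were in the table, and they are the 4 described here. The table held none of 28 type I keratins, among them KRT14, KRT16 and KRT17, known partners of KRT5 and KRT6A, none of 15 desmosome genes, none of 20 cornified envelope genes and none of 15 epithelial regulators. These genes were not analysed here, and their absence says nothing of their level. The list of hair and deimination genes had 4 of 10 members in the table, 0 higher and 4 lower, where 74.5% of all listed genes were lower. Their median authors' log2 fold change was -1.78, beside -1.36 over the 342 lower genes and -1.22 over all 459 genes. This list was written with earlier results of these data known. Only genes called changed were available, so no share over all expressed genes can be set beside the 4 of 10 or the 4 of 26. Both values are descriptions. PADI3, an enzyme that converts arginine to citrulline in hair follicle proteins, stood at 0.892, 0.957 and 0.778 FPKM in control 1, 2 and 3 and at 0.0990, 0.0339 and 0.0928 FPKM in FA 1, 2 and 3 (log2 fold change -3.47, SE 0.33). S100A3, a calcium-binding protein of the hair cuticle, had means of 13.8 ± 2.3 and 4.26 ± 0.37 FPKM, PADI2 1.37 ± 0.035 and 0.347 ± 0.052 FPKM, and PADI1 24.8 ± 0.74 and 10.6 ± 0.18 FPKM in control and with FA (SD, n = 3 each). PADI1 changed sign when libraries were scaled on the listed genes alone.

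Of 8 hemidesmosome genes looked up, 1 (COL17A1) was in the table. COL17A1 is a transmembrane collagen of the hemidesmosome, the complex that anchors KRT5 filaments to the basement membrane. It had 2.80 ± 0.14 FPKM in control and 1.10 ± 0.24 FPKM with FA (SD, n = 3 each). Of 15 other intermediate filament genes, NES (nestin) was in the table, at 0.248 ± 0.037 FPKM in control and 0.0902 ± 0.030 FPKM with FA. With TMM scaling over the listed genes COL17A1 and NES stayed negative, at -0.12 and -0.21 on the log2 scale. Both values were smaller in size than the SEs of 0.18 and 0.30 from the depth-scaled fit. The direction of COL17A1 and NES is therefore uncertain under that scaling. The authors' limits put every gene of these lists on 1 side or the other before they were counted here.

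**Figure D5:**
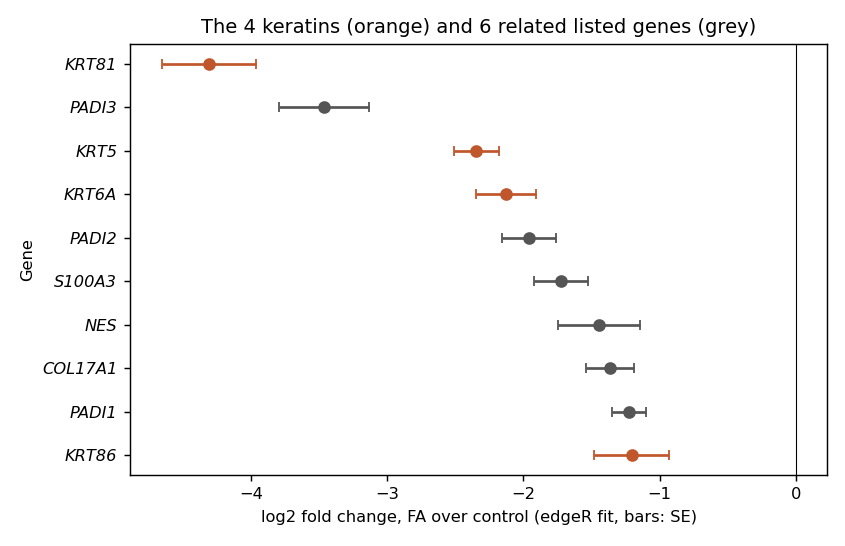
Log2 fold change of FA over control (horizontal axis) with its standard error as a bar, from the edgeR fit, for the 4 keratins in orange and 6 genes of the related lists in grey. KRT81 (-4.31) and PADI3 (-3.47) lie farthest from 0, and PADI1 (-1.22) and KRT86 (-1.20) nearest. These 2 change sign when libraries are scaled on the listed genes alone.

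Among the 370 other annotated listed genes whose mean count was 50 or more, those whose profile over the 6 libraries was most like each keratin were found from the mean absolute difference of log2 depth-scaled counts (CPM) centred on each gene. With a pseudocount of 0.5 CPM the nearest to KRT5 were NKAIN4, GADD45B and MT2A, and the nearest to KRT6A were SLIT3, CYR61 and S100A3. MMP1, LYPD1 and GADD45B were nearest to KRT81, and ACVRL1, HYAL3 and CD82 to KRT86. That pseudocount compresses genes of few counts: NKAIN4 has a log2 fold change of -3.36 in the authors' deposited table, against -2.29 for KRT5. With 0.01 CPM, chosen after seeing this, KRT86 had the same nearest 3 (differences of 0.069 to 0.11, median over genes 0.40), and KRT6A had SLIT3 (0.034), SAA1 and GADD45B. KRT5 then had GADD45B (0.080), MT2A and LRG1, with KRT6A in 5th place (0.12), where 0.5 CPM had put it 33rd (0.29). The nearest to KRT81 were MMP7 (0.47), ID3 and EDN1. KRT81 was 273rd of 370 in nearness to KRT86 with 0.5 CPM (difference 0.79) and 360th with 0.01 CPM (1.61). With either pseudocount the hair keratins, the closest pair of the 4 in coding sequence, had the largest profile difference of any pair of the 4. The profiles hold the contrast of FA with control that chose the genes. KRT81 (-4.27) and KRT86 (-1.15) are the ends of the 4 in the authors' log2 fold change, so this largely restates those values.

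The promoter of KRT5 was the 1 of the 4 matched in the RefSeq promoter table (GRCh38.p14, 250 bases before to 50 after the start). It did not hold GCGTG, the core of the aryl hydrocarbon receptor element, on either strand, which 36.5% of all 35116 promoters of that length held. It held neither form of the AP-1 element searched, of which the first is TGAGTCA. The other AP-1 form is TGACTCA, and 4.95% of promoters held one or the other. The SP1 letters GGGCGG, found in 45.0% of promoters, were not there either. The same was true of the TATA box letters TATAAA, found in 11.5% of promoters. Only exact letters in this window were searched, so their absence says nothing of other sites or of how KRT5 is regulated.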

How the data were processed

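The authors deposited a single table with, per the file headers, read counts and FPKM values of each gene in each library. It also gives the authors' own FDR (an adjusted p-value) and log2 fold change of FA against control. The submitters' processing notes name GRCh38. Per the labels' protocols, mRNA was enriched by its poly(A) tail. No source used here names the aligner, the counter or the test. Depth was recovered from the count to FPKM ratio of 180 genes with at least 200 counts, scaled on 16 genes with a single annotated transcript. Listed genes held 1.34% to 1.68% of it. Log2 fold changes and SEs come from edgeR 4.0.16 (R 4.3.3), in a quasi-likelihood fit of the deposited counts of all 459 genes. Group was the sole term, that depth was the library size and the adjustment was Benjamini-Hochberg. The fit was checked on simulated counts that included unchanged genes, so the check does not cover a list of changed genes only. An SE is the size of the log2 fold change over the root of its F statistic. All 459 genes had passed the authors' limits on these same libraries, so that selection may affect both the fold changes and the SEs. DESeq2 1.42.0 was an alternative. Coding sequences were aligned globally with Biopython 1.88 (match 2, mismatch -3, gap open -5, extension -2); a protein alignment was planned and not run. Named genes are the 4 keratins, the genes of the fixed lists in the table (some items are not reported here), and the 3 nearest profiles per keratin. Members, lists and tests were chosen with earlier results of these data known. Binomial and Poisson intervals cover counting error only.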

Additional observations from a re-analysis of the deposited data

How the results depend on the processing

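Library scaling moved the values most. TMM over the listed genes gave log2 fold changes of -1.10 for KRT5, -0.88 for KRT6A, -3.07 for KRT81 and 0.046 for KRT86, and DESeq2 size factors over the listed genes gave -1.11, -0.89, -3.09 and 0.037. Both add about 1.24 and 1.23 to the median gene by construction, and lowered the listed genes called lower from 342 to 81 and 87. Column totals gave -2.10 for KRT5 and -1.89 for KRT6A. A pseudocount of 0.1 FPKM gave -3.32 for KRT81, since it is above the mean FA level of that gene. Leaving out each library in turn gave -2.47 to -2.23 for KRT5, -2.22 to -1.99 for KRT6A, -4.86 to -3.94 for KRT81 and -1.39 to -0.90 for KRT86, with 342 genes called lower each time. It gave KRT81 shares of 48.2% to 55.7% in control and 7.11% to 14.4% with FA, and KRT6A shares of 5.66% to 6.21% and 6.51% to 6.99%. The other alternatives moved each log2 fold change and share by less than its within-group SD. Fitting only genes with a mean of 50 counts or more called 309 genes lower, as fewer genes were tested (418). Deviations of same-numbered libraries had correlations of 0.014, 0.12 and -0.22, within the -0.23 to 0.22 of differently numbered ones. With so few libraries, centred within their group, this cannot show whether the numbers pair libraries. A replicate block gave -2.34, -2.12, -4.32 and -1.17 for KRT5, KRT6A, KRT81 and KRT86 and 342 genes called lower. Few counts limit KRT81 with FA.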
